A study of Mus musculus with 12 samples.

Results

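The comparison set 2 arrays of EML1 cells carrying TEL-AML1 against 2 arrays of EML1 cells carrying the empty vector, all harvested after 5 days with IL7 and FLT3L. The 4 arrays were chosen by their sample titles out of 12 in the series, which also holds both vectors untreated and at day 7 (2 arrays each). EML1 is a haematopoietic progenitor line made by infecting marrow cells of male BDF1 mice with a retrovirus, LRARalpha403SN, so cells of both vectors carry this dominant-negative retinoic acid receptor alpha. The fusion's coding sequence was delivered in the lentiviral vector pWPI, and the control cells received pWPI alone. By the protocol in the labels, cells were led towards B cells by moving the cells onto confluent OP9 stroma in alpha-MEM with fetal bovine serum, beta-mercaptoethanol and 2 cytokines, 10 ng/ml of IL7 and 80 ng/ml of FLT3L. Untreated cells were kept in IMDM with horse serum and conditioned medium, without that stroma. The labels do not say whether the transduced cells were a pool or a clone, nor whether replicates were separate cultures, so p-values reflect only how far these arrays spread, which could be technical variation.

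TEL-AML1, also called ETV6-RUNX1, joins an amino-terminal part of the repressor ETV6 to most of the transcription factor RUNX1, including its DNA-binding Runt domain. It is the fusion of a common childhood leukaemia of B-cell precursors. It binds RUNX sites in DNA and is known to recruit corepressors, while normal RUNX1 with its partner CBFB takes part in stem cell, lymphoid and megakaryocyte development. EML cells can give rise to erythroid, myeloid and lymphoid progeny, and IL7 with FLT3L on stroma favours the lymphoid path. The question was which genes differ with TEL-AML1 while the cells are on that path.

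All 4 arrays carried the transcripts of a progenitor and of stroma. Those of a committed B cell were dim or absent, apart from Ebf1. Kit, the stem cell factor receptor, stood at 2280 and 2733 (empty vector, replicates 1 and 2) and at 2186 and 2435 (TEL-AML1). Cd34, Ptprc, Spi1, Myb and Gata2 were bright as well, while Flt3 lay below the filter on dim genes. Of the B lineage markers, Cd79a lay below that filter and Pax5 stood between 54.9 and 63.9, near its untreated level. Cd79b (67.1 to 83), Vpreb1 (63.2 to 92) and Igll1 (59.5 to 71.3) were dim too. Ebf1 went the other way, at 289 and 183 (empty vector) and 200 and 76.8 (TEL-AML1) against 47.6 to 49.2 untreated. Globin genes were not analysed here. Of the macrophage markers, Cd14 lay below the filter, Csf1r stood between 61.9 and 72.2 and Adgre1 between 55.5 and 65.9. Lyz2 stood at 134 and 81.5 against 136 and 143 with TEL-AML1 and was not called (0.37 ± 0.22, adjusted p = 0.381). Cd68 stood at 111 and 100 against 147 and 145, with both TEL-AML1 arrays the higher (0.41 ± 0.077, adjusted p = 0.00916 by limma), a call that ended without empty-vector replicate 2 or TEL-AML1 replicate 1. Cpa3, a mast cell protease gene that such progenitors also express, stood between 3998 and 4368 on all 4 arrays.

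Stroma transcripts were present in unequal amounts. The summed intensity of the 37 tested stroma genes was 16285 and 12170 for the empty vector, and for TEL-AML1 13857 and 7462, against 4728 to 5353 on the untreated arrays. Replicate 2 was thus the lower of each vector, and the TEL-AML1 array the lower of each replicate number. Col1a1, the main collagen of stroma, stood at 777 and 553 against 571 and 172. Fn1, fibronectin, stood at 2249 and 1576 against 1910 and 560. In 35 of the 37 genes replicate 1 exceeded replicate 2 in each vector, with a median gap of -0.39 (empty vector) and -0.72 (TEL-AML1) on the log2 scale. The median TEL-AML1 difference over the list was -0.47, being -0.32 between the replicate 1 arrays and -0.61 between the replicate 2 arrays. Without a block 1 of the 37 was called higher (Pdgfrb, a growth factor receptor, not called once any single array was left out) and 0 lower. Blocking on the replicate number within each condition gave 1 higher and 23 lower. Pdgfrb, part of the sum, was about as bright untreated, without that stroma, as at day 5. It stood at 917 and 891 (empty vector) and 1261 and 1170 (TEL-AML1) untreated, then at 931 and 946 and at 1241 and 1217. Igfbp4, also in the sum, was higher on the TEL-AML1 array of each replicate number. From empty-vector replicate 1 to TEL-AML1 replicate 2, Col1a1 and Fn1 fell more steeply than the sum. In such bulk RNA, fewer stromal cells and less RNA per cell cannot be told apart. The part of stroma in the differences given here was not tested beyond this block and a stroma covariate.

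**Figure D1:**
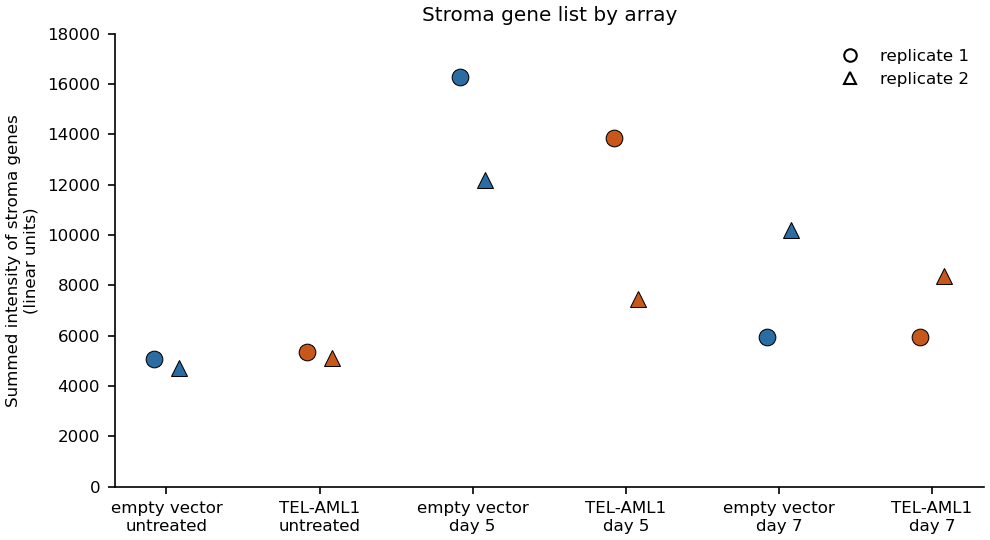
Summed intensity of the 37 tested OP9 stroma genes (vertical axis, linear units) on each of the 12 arrays, by vector and condition, with circles for replicate 1 and triangles for replicate 2. At day 5 the empty-vector arrays stand at 16285 and 12170 and the TEL-AML1 arrays at 13857 and 7462, above all untreated arrays.

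Of 12345 genes tested, 900 (7.29%) differed between the vectors at day 5. TEL-AML1 was higher in 373 (3.02%) and lower in 527 (4.27%). Differences are on the log2(intensity + 16) scale, which understates those of dim genes, with the standard error after ±. Adjusted p-values come from limma over all 12345 genes, with a threshold of 0.05. By more than 2-fold, 48 genes were higher and 52 lower. All 900 had the same sign in the replicate 1 pair and in the replicate 2 pair. The calls rest on the mean of these 2 pairs, so this is no separate support. The median standard error was 0.099. Without empty-vector replicate 2 the count was 450, without TEL-AML1 replicate 1 or replicate 2 it was 574 each, and 334 genes (119 higher, 215 lower) were called without any 1 of the 4 arrays. With the replicate block the count was 1827 (6.15% of genes higher and 8.65% lower), including all 900. The block changes the standard error of a difference and not the difference itself, so the direction was fixed. With a covariate for stroma (the mean log2 level of the stroma genes on an array) it was 1254 (613 higher, 641 lower), including 817 of the 900. The percentages given here are the background for each gene group described next.

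**Figure D2:**
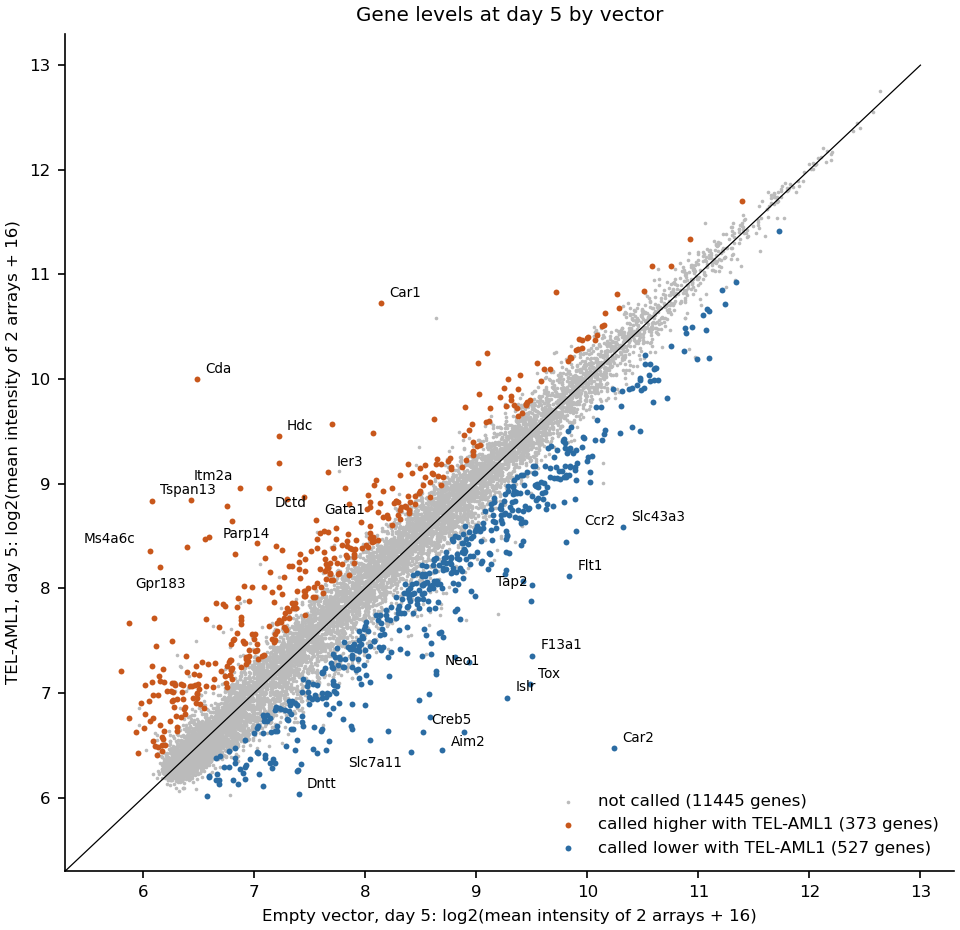
Level of each of 12345 genes at day 5 as log2(mean intensity of 2 arrays + 16), with the empty vector on the horizontal and TEL-AML1 on the vertical axis. The 373 genes called higher lie above and the 527 called lower lie below the line of equal level, with Cda and Car2 the farthest from it.

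The widest differences upward were those of Cda, Tspan13, Car1 and Ms4a6c, in that order. Cda, which deaminates cytidine in the salvage pathway, stood at 77.1 (replicate 1) and 70 (replicate 2) in controls and at 968 and 1043 with TEL-AML1. Both TEL-AML1 arrays lay far above both controls, a difference of 3.51 ± 0.17 (adjusted p = 1.33e-05) or 11.4-fold. Tspan13, a tetraspanin of the cell surface, stood at 45.7 and 57.3 against 474 and 410 (2.76 ± 0.21, adjusted p = 7.72e-05). Ms4a6c, a membrane protein of the MS4A family expressed in myeloid cells, stood at 51.2 and 50.5 against 349 and 272 (2.28 ± 0.19, adjusted p = 0.000115). For these genes the control arrays sat near the dim end of the tested range and the TEL-AML1 arrays well inside it. Itm2a, a membrane protein, stood at 82.3 and 119 against 472 and 491 (2.11 ± 0.19, adjusted p = 0.000167). Gpr183, an oxysterol receptor that guides lymphocytes in tissue, read 53.8 and 56.2 against 278 on both TEL-AML1 arrays (2.05 ± 0.11, adjusted p = 1.33e-05). Nup210, a nuclear pore protein, stood at 110 and 156 against 558 and 586 (2.00 ± 0.16, adjusted p = 7.79e-05). In none of these did the arrays of the vectors overlap, as was so for 46.6% of all tested genes.

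Replicates parted more widely for other genes on that side. Hdc, which makes histamine, stood at 148 and 118 against 954 and 417 (2.13 ± 0.34, adjusted p = 0.00392). TEL-AML1 replicate 1 lay above replicate 2 by more than 2-fold, yet both exceeded the controls. Slc6a4, the serotonin transporter, stood at 70.1 and 85.6 against 456 and 223 (1.85 ± 0.27, adjusted p = 0.0025). Clec10a, a lectin of myeloid cells, stood at 89.6 and 51.4 against 705 and 181 (2.16 ± 0.56, adjusted p = 0.043), a call that ended without either empty-vector array or TEL-AML1 replicate 1. Of the 25 highest named genes, 19 were called without any 1 of the 4 arrays. The 6 others were Car1, Clec10a, Ms4a2, Pilra, Cd55 and Cmpk2.

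The widest differences downward were those of Car2, Tox, Islr, Alpk2 and Aim2, in that order. Car2, an enzyme of early erythroid cells, stood at 1037 and 1353 with the empty vector and at 63.9 and 81.3 with TEL-AML1. The groups were far apart, a difference of -3.77 ± 0.24 (adjusted p = 2.49e-05), with the empty vector 13.6-fold higher. Tox, an HMG-box factor of T-cell development, stood at 719 and 681 against 105 and 134 (-2.41 ± 0.14, adjusted p = 1.38e-05). Aim2, which senses DNA in the cytosol and starts inflammasomes, read 437 and 360 against 72.2 and 71.4 (-2.23 ± 0.14, adjusted p = 2.47e-05). For each of these both TEL-AML1 arrays lay below both controls. Islr, a secreted immunoglobulin-like protein that marks mesenchymal cells, stood at 643 and 565 against 132 and 82.9 (-2.35 ± 0.19, adjusted p = 0.000104). Alpk2, an alpha kinase, stood at 409 and 508 against 78.9 and 86.8 (-2.26 ± 0.18, adjusted p = 0.000104). F13a1, the A subunit of coagulation factor XIII, stood at 680 and 740 against 144 and 152 (-2.14 ± 0.12, adjusted p = 1.33e-05). Creb5, a CRE-binding factor, stood at 323 and 381 against 78.7 and 86.7 (-1.90 ± 0.20, adjusted p = 0.000355). Of the 25 lowest named genes, 24 were called without any 1 of the 4 arrays. The exception, Sptbn1, a spectrin chain (-1.36 ± 0.26, adjusted p = 0.0105), lost its call without either empty-vector array or TEL-AML1 replicate 2.

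**Figure D3:**
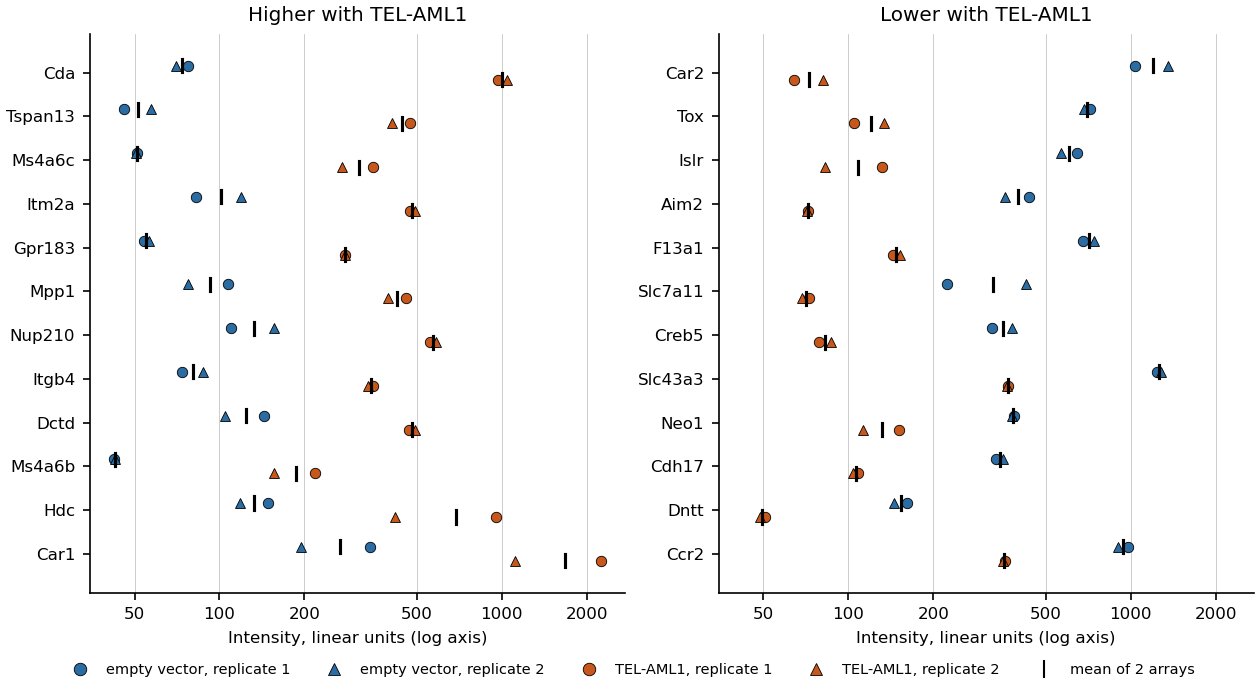
Intensity (linear units, log axis) of 12 genes higher and 12 lower with TEL-AML1 on each day 5 array, with circles for replicate 1, triangles for replicate 2 and a bar at the mean of 2 arrays. The arrays of the vectors do not overlap for any gene shown, and among these 24 genes the TEL-AML1 replicates are widest apart on the log axis for Hdc (954 and 417) and Car1 (2238 and 1113).

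Because the fusion keeps the DNA-binding domain of RUNX1, promoters were searched for the RUNX core TGTGGT on both strands, in 300 bases from 250 before to 50 after the annotated start (RefSeq, GRCm38.p6). Of the 12345 genes, 9879 matched a promoter entry, with 12531 promoters in all. The core was in 13.2% of them, in 17.7% of the 373 promoters of genes called higher and in 12.1% of the 544 of genes called lower (12.9% of 387 without distal chromosome 5). Among genes over 2-fold, it was in 18.4% of 49 promoters on the higher side and 12.7% of 55 on the lower side. The GATA core AGATAA was in 6.62% of all promoters, in 9.12% of those of genes called higher and 7.35% of those called lower. The ETS core CCGGAAGT was in 7.31%, 5.90% and 6.99%, and the E-box CACGTG in 9.54%, 8.58% and 8.46%, in the same order. These shares are descriptions without a test, a match is not a binding site, and no motif searched contains another.

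Promoters of 6 genes called at day 5 are printed because they hold the RUNX core, 4 of genes higher (Cda, Cmpk2, Pilra, Cma1) and 2 of genes lower (Ano10, Serpinf1) with TEL-AML1. Each reads 5′ to 3′ on the gene's strand, with the core, or its reverse complement, in capitals.
Cda (chr4:138367906-138368205, minus strand): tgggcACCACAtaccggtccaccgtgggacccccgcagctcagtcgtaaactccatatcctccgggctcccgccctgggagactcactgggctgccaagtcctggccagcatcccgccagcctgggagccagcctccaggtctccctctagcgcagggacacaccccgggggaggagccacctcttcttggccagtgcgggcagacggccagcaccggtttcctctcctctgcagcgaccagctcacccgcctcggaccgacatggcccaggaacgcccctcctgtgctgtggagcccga
Pilra (chr5:137836229-137836528, minus strand): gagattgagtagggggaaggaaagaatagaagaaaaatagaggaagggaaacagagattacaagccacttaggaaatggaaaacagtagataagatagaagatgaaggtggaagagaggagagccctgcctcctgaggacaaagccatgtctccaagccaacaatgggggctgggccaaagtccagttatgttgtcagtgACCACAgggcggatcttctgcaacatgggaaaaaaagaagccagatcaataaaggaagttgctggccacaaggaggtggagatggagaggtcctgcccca
Cmpk2 (chr12:26468965-26469264, plus strand): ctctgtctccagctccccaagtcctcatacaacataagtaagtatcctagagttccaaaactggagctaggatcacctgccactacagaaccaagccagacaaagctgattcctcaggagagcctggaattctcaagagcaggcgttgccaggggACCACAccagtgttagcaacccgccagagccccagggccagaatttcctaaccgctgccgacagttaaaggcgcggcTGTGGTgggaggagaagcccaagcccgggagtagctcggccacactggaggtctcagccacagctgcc
Cma1 (chr14:55944626-55944925, minus strand): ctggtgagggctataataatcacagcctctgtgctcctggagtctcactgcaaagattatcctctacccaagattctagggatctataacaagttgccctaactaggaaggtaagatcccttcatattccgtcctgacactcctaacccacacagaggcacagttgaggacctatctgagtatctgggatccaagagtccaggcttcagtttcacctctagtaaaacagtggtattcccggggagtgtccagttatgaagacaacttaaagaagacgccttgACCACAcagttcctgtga
Ano10 (chr9:122294374-122294673, minus strand): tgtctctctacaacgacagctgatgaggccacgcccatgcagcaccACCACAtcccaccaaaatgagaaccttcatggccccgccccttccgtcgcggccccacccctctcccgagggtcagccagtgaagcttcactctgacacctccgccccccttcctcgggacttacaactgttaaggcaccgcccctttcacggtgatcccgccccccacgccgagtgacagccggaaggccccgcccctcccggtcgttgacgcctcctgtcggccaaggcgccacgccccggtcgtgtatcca
Serpinf1 (chr11:75422574-75422873, minus strand): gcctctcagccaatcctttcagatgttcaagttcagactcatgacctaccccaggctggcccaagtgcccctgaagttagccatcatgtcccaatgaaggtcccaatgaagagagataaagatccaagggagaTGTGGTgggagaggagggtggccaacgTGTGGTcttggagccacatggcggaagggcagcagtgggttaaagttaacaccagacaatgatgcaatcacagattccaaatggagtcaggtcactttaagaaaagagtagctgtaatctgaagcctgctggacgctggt
The core was found once in the windows of Cda, Pilra, Cma1 and Ano10 and at 2 places in those of Cmpk2 and Serpinf1. In the window of Cda it lay near the upstream end, and in that of Cma1 after the annotated start.

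Ano10, a channel-like protein of the anoctamin family, stood at 464 and 401 with the empty vector against 163 and 128 with TEL-AML1 (-1.48 ± 0.14, adjusted p = 0.000222). Serpinf1, which codes for the secreted factor PEDF, stood at 970 and 789 against 358 and 307 (-1.36 ± 0.21, adjusted p = 0.00337). Both were lower on each TEL-AML1 array. Pilra, an inhibitory receptor of myeloid cells, stood at 215 and 168 against 1026 and 465 (1.78 ± 0.32, adjusted p = 0.00719), a call that ended without empty-vector replicate 2. Values of Cmpk2 and Cma1 are given with their groups.

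Genes were then read by function, with counts beside the background of 3.02% higher and 4.27% lower over all genes. A call is said to hold if it was made in each of the 4 fits that leave out 1 day 5 array. Among 24 tested enzymes and transporters of pyrimidines and deoxynucleotides, 3 were higher and 1 lower, with a median difference of 0.12. Dctd, which deaminates deoxycytidylate, stood at 144 and 105 against 469 and 492 (1.84 ± 0.12, adjusted p = 2.49e-05). Cmpk2, a mitochondrial kinase of pyrimidine nucleotides that interferon induces, stood at 111 and 83.3 against 379 and 230 (1.47 ± 0.27, adjusted p = 0.00788). Its call ended without empty-vector replicate 2 or TEL-AML1 replicate 1. With Cda, then, both deaminases of the list were higher on each TEL-AML1 array. Slc43a3, a transporter of purine bases, went the other way, from 1242 and 1285 to 369 and 366 (-1.74 ± 0.096, adjusted p = 1.33e-05). The calls that held were 2 higher and 1 lower, and with the block, as with the stroma covariate, 5 were higher and 1 lower.

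Erythroid genes were mixed. Of 28 tested, 5 were higher and 3 lower, with a median of 0.29 (0.35 between the replicate 1 and 0.12 between the replicate 2 arrays), and with the block 10 were higher and 3 lower. The calls of 1 higher and 3 lower genes held. Mpp1, a membrane scaffold of red cells, stood at 107 and 77.3 against 459 and 395 (2.04 ± 0.15, adjusted p = 5.69e-05). Gata1, the master factor of red cells and megakaryocytes, stood at 182 and 163 against 490 and 282 (1.05 ± 0.19, adjusted p = 0.00729), a call that ended without empty-vector replicate 2. Car1, another carbonic anhydrase, stood at 340 and 194 against 2238 and 1113 (2.54 ± 0.49, adjusted p = 0.0101), and its call ended without empty-vector replicate 2 or TEL-AML1 replicate 1. The 2 carbonic anhydrases thus lay on opposite sides, Car1 higher and Car2 lower. Epb42, a band of the red cell membrane skeleton, stood at 177 and 180 against 93.0 and 76.6 (-0.95 ± 0.13, adjusted p = 0.00221). The urea transporter Slc14a1 of red cells was the remaining lower gene (-0.80 ± 0.082, adjusted p = 0.000305). Klf1, a driver of globin genes, stood at 87.8 and 58.2 against 244 and 82.9 and was not called (0.87 ± 0.36, adjusted p = 0.204), but with the block its adjusted p was 0.0204.

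Mast cell, basophil and eosinophil genes were called only upward, 5 of 29, with a median of 0.21, and with the block 9 were higher and 1 lower. Of the 5 calls 2 held. Besides Hdc, Ms4a2, the beta chain of the high-affinity IgE receptor, stood at 80.9 and 55.2 against 454 and 187 (1.90 ± 0.33, adjusted p = 0.00597), a call that ended without empty-vector replicate 2. Siglecf, a lectin of eosinophils, stood at 235 and 306 against 468 and 476 (0.78 ± 0.14, adjusted p = 0.00641). Cma1, a mast cell chymase, stood at 263 and 241 against 964 and 431 (1.31 ± 0.30, adjusted p = 0.0239), but without either empty-vector array or TEL-AML1 replicate 1 it was not called. TEL-AML1 replicate 1 was the brighter for Hdc, Ms4a2 and Cma1. Cpa3, another mast cell marker, did not pass the test (0.03 ± 0.091, adjusted p = 0.897).

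In the megakaryocyte and platelet list 3 of 21 were higher and 3 lower, with a median of -0.13, and 2 calls each way held. Along with F13a1, Gp9, a chain of the von Willebrand factor receptor, was lower, at 318 and 315 against 158 and 143 (-1.0 ± 0.099, adjusted p = 0.000285). Slc6a4 and P2ry1, the ADP receptor of platelets (53.3 and 68.7 against 105 and 106, 0.67 ± 0.098, adjusted p = 0.00272), were higher. Markers of 1 lineage therefore parted by gene.

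Monocyte and macrophage genes were higher in 8 of 23 and lower in 1, with a median of 0.15. Of these calls 2 higher and 1 lower held, and with the stroma covariate 5 were higher and 1 lower. Ms4a6b, next of kin to Ms4a6c, stood at 42.3 and 42.6 against 218 and 156 (1.78 ± 0.20, adjusted p = 0.00053). Its control arrays, too, lay under the filter on dim genes. Apoe, apolipoprotein E, stood at 156 and 149 against 286 and 262 (0.78 ± 0.14, adjusted p = 0.00641), losing its call without empty-vector replicate 2. Spi1, the factor PU.1, stood at 495 and 519 against 619 and 674 (0.34 ± 0.088, adjusted p = 0.0437), and that call was lost with any single array left out and with the stroma covariate (adjusted p = 0.0906). Over the whole MS4A family, 5 of 7 tested members were higher and none lower, a median of 0.35, and 2 of the 5 calls held. The family's genes are close relatives, and whether probe sets tell them apart was not tested. The 1 lower gene of the monocyte list was Ccr2, the receptor for the chemokine CCL2, at 975 and 900 against 359 and 354 (-1.36 ± 0.10, adjusted p = 5.69e-05). Of 15 granulocyte genes, 1 was higher and 0 lower, and with the block 1 each way. That call did not hold, and with the stroma covariate 2 were higher.

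Lymphoid genes were called in both directions, with those of the priming list lower. Of 19 lymphoid priming genes, 0 were higher and 3 lower, with a median of -0.08. Dntt adds untemplated bases to rearranging antigen receptor genes. It stood at 161 and 145 with the empty vector and at 50.7 and 48.5 with TEL-AML1 (-1.37 ± 0.21, adjusted p = 0.00346). Tcf4, an E protein of B and dendritic cells, stood at 602 and 522 against 390 and 340 (-0.60 ± 0.10, adjusted p = 0.00597). Together with Tox these were lower on both TEL-AML1 arrays, and each call held without any 1 of the 4 arrays. Of 22 B lineage genes, 1 was higher and 1 lower (Dntt), with a median of -0.01, and with the block 1 was higher and 3 lower. Bach2, a repressor in B cells, was dim and higher, at 51.6 and 62.2 against 85.2 and 82.3 (0.46 ± 0.086, adjusted p = 0.00952), a call that ended without TEL-AML1 replicate 1. Ebf1, an early B-cell factor that adipogenic stroma also expresses, stood at 289 and 183 against 200 and 76.8. Its array order was that of the stroma sums, and it was not called (-0.80 ± 0.43, adjusted p = 0.328) but passed with the block (adjusted p = 0.0129). Il7r, the IL7 receptor chain, stood between 51.7 and 64.6 on the 4 arrays (0.08 ± 0.32, adjusted p = 0.923).

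In the T and NK list 3 of 15 were higher and 1 lower, of which 1 higher call (Cd7) held. Cd7, a T and NK surface protein, stood at 82.6 and 87.0 against 214 and 218 (1.20 ± 0.12, adjusted p = 0.000313). Gzmb, granzyme B, was bright in all and stood at 1810 and 2043 against 2636 and 2520 (0.42 ± 0.077, adjusted p = 0.00845), with the call ending without TEL-AML1 replicate 1. Stem and progenitor genes had 2 of 23 higher and 2 lower, and 0 of the 4 calls held (1 higher and 2 lower with the stroma covariate). Hlf, a stem cell factor, stood at 381 and 527 against 214 and 304 (-0.78 ± 0.17, adjusted p = 0.019, ending without empty-vector replicate 2 or TEL-AML1 replicate 1). Meis1, a homeobox partner of HOX proteins, stood at 300 and 242 against 153 and 192 (-0.61 ± 0.13, adjusted p = 0.02, ending without empty-vector or TEL-AML1 replicate 1). Kit and Cd34 did not pass (-0.11 ± 0.10, adjusted p = 0.578, and 0.03 ± 0.086, adjusted p = 0.897).

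Interferon effectors had calls in both directions with the block and 2 upward calls without it, while antigen processing genes were called mostly downward. Of 31 tested, 2 were higher and 0 lower, with a median of -0.11, and with the block 2 were higher and 5 lower. The call of Parp14 held. Replicate 1 exceeded replicate 2 in 30 of the 31 with the empty vector and in 28 with TEL-AML1. Parp14, an ADP-ribosyltransferase, stood at 132 and 129 against 348 and 295 (1.20 ± 0.12, adjusted p = 0.000302). In antigen processing, 1 of 15 genes was higher and 4 lower, and 3 of the lower calls held. Tap2, a chain of the peptide transporter of MHC class I loading, stood at 534 and 533 against 303 and 248 (-0.92 ± 0.098, adjusted p = 0.000395). Its partner Tap1 stood at 766 and 898 against 548 and 487 (-0.67 ± 0.11, adjusted p = 0.00392). The immunoproteasome subunit Psmb9 stood at 678 and 616 against 461 and 367 (-0.63 ± 0.099, adjusted p = 0.00378). Both chains of the transporter were lower, while Psmb8, another immunoproteasome subunit, was higher (0.46 ± 0.12, adjusted p = 0.0495, with the call lost when any single array was left out).

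Each signalling list had 1 to 3 calls without the block, too few to read a direction from. Of 25 p53 targets 0 were higher and 2 lower, with a median of -0.20, and with the block 4 were lower. The call of Mdm2 held. Mdm2, the ubiquitin ligase of p53, stood at 898 and 836 against 523 and 517 (-0.72 ± 0.11, adjusted p = 0.0037). Zmat3, an RNA-binding protein, stood at 310 and 409 against 204 and 140 (-1.0 ± 0.17, adjusted p = 0.00535, ending without empty-vector replicate 2). Of 26 TGF-beta and BMP genes, 3 were lower and 0 higher, and with the block 8 were lower and 1 higher. The 1 call that held was Smurf1. The signal carrier Smad3 stood at 378 and 319 against 237 and 222 (-0.57 ± 0.11, adjusted p = 0.00859, ending without empty-vector replicate 1 or TEL-AML1 replicate 2). Of 24 JAK-STAT genes 3 were higher and 0 lower (4 and 2 with the block, 1 and 0 with the stroma covariate, and none that held), among them Il4ra, the IL4 receptor chain, at 359 and 351 against 533 and 594 (0.64 ± 0.12, adjusted p = 0.00975, ending without replicate 2 of either vector). Among 27 immediate early genes, Ier3, a stress-induced survival gene, was the only call and held (2 higher and 4 lower with the block), at 167 and 208 against 502 and 574 (1.45 ± 0.11, adjusted p = 5.69e-05).

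Metabolic lists differed in direction. Sterol and fatty acid synthesis genes were higher in 5 of 29 and lower in none, with a median of 0.27 (0.17 between the replicate 1 and 0.37 between the replicate 2 arrays), and with the block 10 and with the stroma covariate 8 were higher. Msmo1, a sterol demethylase, stood at 599 and 414 against 912 and 907 (0.85 ± 0.17, adjusted p = 0.0116). Hmgcs1, which makes HMG-CoA, stood at 622 and 562 against 897 and 1006 (0.67 ± 0.17, adjusted p = 0.0359). The call of Msmo1 ended without empty-vector replicate 2 or either TEL-AML1 array, that of Hmgcs1 without any 1 of the 4, and 0 of the 5 held throughout. Glycolysis and hypoxia genes had 2 of 27 higher and 2 lower, none of which held. The platelet and liver phosphofructokinase genes Pfkp (0.56 ± 0.12, adjusted p = 0.0175) and Pfkl (0.55 ± 0.12, adjusted p = 0.0216) were higher, calls that each ended without empty-vector replicate 2 or either TEL-AML1 array. Ndrg1, a hypoxia gene, stood at 1797 and 2560 against 1194 and 1132 (-0.87 ± 0.17, adjusted p = 0.0104, ending without replicate 2 of either vector). Among 14 amino acid transporters 1 was higher and 3 lower, of which 2 lower calls held. Slc7a11, the cystine importer, stood at 224 and 425 against 72.4 and 68.6 (-1.91 ± 0.21, adjusted p = 0.000459), lower on both TEL-AML1 arrays although the controls parted.

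Surface receptors of guidance were called lower only, and adhesion genes in both directions. Guidance receptors were lower in 4 of 21 and higher in none, with a median of -0.23, and with the block 9 were lower. Neo1, neogenin, a netrin and RGM receptor, stood at 385 and 381 against 151 and 113 (-1.44 ± 0.18, adjusted p = 0.000898). Plxna2, a semaphorin receptor, stood at 141 and 140 against 73.3 and 74.3 (-0.80 ± 0.072, adjusted p = 0.000183). Epha2, an ephrin receptor, stood at 205 and 289 against 121 and 123 (-0.92 ± 0.14, adjusted p = 0.00373). All 4, with Flt1, were called without any 1 of the 4 arrays. Of 29 integrins and adhesion genes 4 were higher and 3 lower, of which 2 higher and 1 lower calls held. Itgb4, the integrin beta 4 chain that pairs with alpha 6, stood at 73.9 and 87.2 against 349 and 336 (1.90 ± 0.14, adjusted p = 5.69e-05). Itgb2, the beta chain of leukocyte integrins, stood at 186 and 179 against 306 and 284 (0.65 ± 0.074, adjusted p = 0.000597). Cdh17, a cadherin also found on early B cells, went from 334 and 353 to 108 and 104 (-1.56 ± 0.22, adjusted p = 0.00216). Of 20 tetraspanins only Tspan13 was called, and this held (3 higher and 3 lower with the block, 3 higher with the stroma covariate). Cd81, which stood at 658 and 430 against 877 and 692, did not pass (0.54 ± 0.37, adjusted p = 0.46), except with the stroma covariate (adjusted p = 0.0179). Among 15 chemokine and migration receptors 3 were higher and 1 lower (Ccr2), with the calls of Gpr183 and Ccr2 holding, and Cxcr4, the receptor for stromal CXCL12, was dim at 51.0 and 80.8 against 122 and 116 (0.75 ± 0.16, adjusted p = 0.0209, ending without empty-vector replicate 1 or either TEL-AML1 array).

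Cell cycle and survival lists had at most 1 call each without the block. Lists this small hold few calls at the share of 7.29% called over all genes. Of 34 replication and mitosis genes 0 were higher and 1 lower, of 16 cyclins D and CDK inhibitors and of 15 BCL2 family genes none was called, and with the block the counts were 2 higher and 1 lower, 1 lower and none. The partners of the fusion did not pass either. Etv6 stood at 1296 and 1433 against 1455 and 1620 (0.17 ± 0.082, adjusted p = 0.274) and Runx1 at 1417 and 1563 against 1417 and 1670 (0.05 ± 0.11, adjusted p = 0.852). Whether their probe sets read the fusion transcript was not tested, so they do not check the labels. Cbfb (0.07 ± 0.086, adjusted p = 0.705), Runx3 (-0.23 ± 0.14, adjusted p = 0.376, and 0.042 with the stroma covariate), Rara (-0.14 ± 0.096, adjusted p = 0.466) and Epor, the erythropoietin receptor (0.20 ± 0.12, adjusted p = 0.392), were not called, and Runx2 lay below the filter. The list of RUNX and ETS partners, which also holds Gata1, Spi1 and Gata3, had 2 of 22 higher and 1 lower, and 4 and 2 with the block, 1 and 3 with the stroma covariate and none that held. Of the lists not described so far, 14 retinoic acid genes had 1 lower (3 with the block, 2 with the stroma covariate), 27 ATF4 and ER stress genes 1 lower (2 with the block, 2 with the stroma covariate), 14 adipocyte genes 1 higher (1 each way with the block, 2 higher with the stroma covariate), 12 dendritic genes 1 lower (1 higher and 2 lower with the block) and 14 nucleic acid sensors 1 higher (0 with the stroma covariate) and 1 lower, the latter being Aim2. Of these only the lower calls of the dendritic genes and of Aim2 held.

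**Figure D4:**
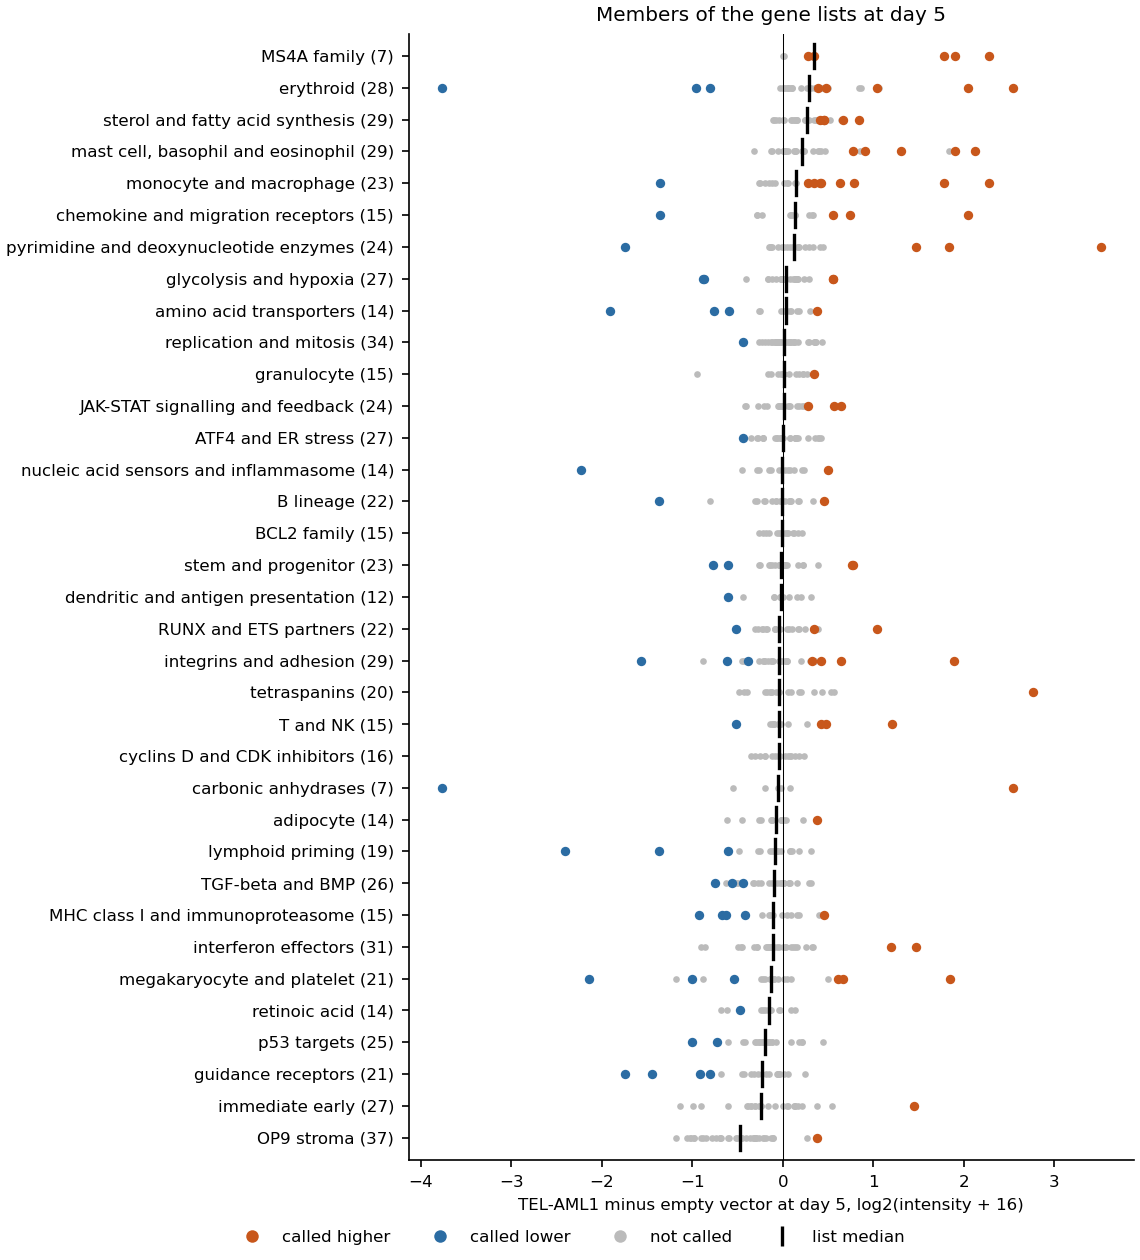
TEL-AML1 minus empty vector at day 5 (log2 scale, horizontal axis) for each tested member of 35 gene lists, ordered by list median (bars), with the number tested in parentheses and called members in colour. Medians run from -0.47 for OP9 stroma to 0.35 for the MS4A family, while members of most lists lie on both sides of 0.

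A share of the lower calls lay together on 1 chromosome. A distal stretch of chromosome 5, from Taok3 to Rfc3 in the gene order of GRCm38.p6, was bounded by the TEL-AML1 differences of the untreated and day 7 arrays. At day 5, 147 of its 333 tested genes were called lower (44.1%) and 2 higher, against 3.16% lower among the 12007 genes outside it and outside chromosome Y. The 175 bright genes of the stretch, those with a log2 mean above 8, had a median difference of -0.51, and the 222 bright genes of the rest of the chromosome 0.02. The stretch held 27.9% of all lower calls. Flt1, a VEGF receptor counted with the guidance receptors, lies there and stood at 845 and 953 against 214 and 310 (-1.74 ± 0.17, adjusted p = 0.000295), well below the median of the stretch. Rasa4, a Ras GTPase activator (281 and 279 against 80.1 and 86.5, -1.58 ± 0.13, adjusted p = 0.000104), Smurf1, a ubiquitin ligase of SMAD proteins (-0.75 ± 0.083, adjusted p = 0.00053), Slc7a1, an arginine transporter (-0.76 ± 0.16, adjusted p = 0.016), Rfc5 of the replication clamp loader (-0.43 ± 0.091, adjusted p = 0.0168) and Psph, the last enzyme of serine synthesis (-0.43 ± 0.093, adjusted p = 0.0189), lie there too. The calls of Slc7a1 (either empty-vector array, TEL-AML1 replicate 1), Rfc5 (any array) and Psph (empty-vector replicate 2, either TEL-AML1 array) ended without the arrays named. Pilra lies in the same stretch and was higher. Chromosome Y had 3 of 5 tested genes higher and none lower, such as the demethylase gene Uty at 94.9 and 133 against 340 and 317 (1.42 ± 0.17, adjusted p = 0.000858). Outside the stretch and chromosome Y, 748 genes were called, 368 higher and 380 lower. Whether the cells of the vectors differ in gene dosage there was not tested.

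Most day 5 differences were also called before treatment or 2 days later. Of the 900, 590 were called in the same direction untreated, which is 65.6% of the day 5 calls and 53.8% of the 1096 untreated calls (8.88% of all genes). At day 7, 700 were called the same way, 77.8% of the day 5 and 50.4% of the 1389 day 7 calls (11.3% of all genes). In all 3 conditions 510 were called the same way, 4 were called the other way untreated and 0 the other way at day 7. All 3 comparisons were fitted with 1 shared spread per gene and the same fold scale, on different arrays. Cda, for example, differed by 3.53, 3.51 and 2.68 and Car2 by -3.20, -3.77 and -3.62 in untreated, day 5 and day 7 cells.

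The difference between the day 5 and the untreated effect was tested for every gene, and 4 of 12345 (0.0324%) passed. Ccr2 was the firmest. In untreated cells its control arrays read 139 and 149 and its TEL-AML1 arrays 203 and 218, so that TEL-AML1 was then higher (0.50, adjusted p = 0.0102). By day 5 the empty-vector arrays had gone up by 2.57 ± 0.10 and the TEL-AML1 arrays by 0.72 ± 0.10, and the order of the vectors was turned. The effect thus changed by -1.85 ± 0.14 (adjusted p = 0.00119). At day 7 Ccr2 stood at 740 and 726 against 457 and 567 (-0.51, adjusted p = 0.00833). Dhrs9, a retinoid and steroid dehydrogenase, stood at 82.5 and 69.9 against 401 and 403 untreated and at 154 and 124 against 135 and 163 at day 5. Its untreated excess of 2.18 was down to 0.09 ± 0.15, a change of -2.09 ± 0.22 (adjusted p = 0.0113). The vectors overlapped at day 5.

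Slc14a1 stood at 1720 and 1660 against 490 and 476 untreated and at 1988 and 2044 against 1202 and 1100 at day 5, so its deficit narrowed by 0.97 ± 0.12 (adjusted p = 0.0263). Slfn5, a schlafen gene that interferon induces, stood at 130 and 133 against 85.6 and 93.1 untreated and at 362 and 371 against 450 and 459 at day 5. It changed from lower to higher with TEL-AML1, by 0.79 ± 0.097 (adjusted p = 0.028). At day 5 alone its difference was 0.30 ± 0.068 (adjusted p = 0.0255), a call lost with any single array left out and with the stroma covariate (adjusted p = 0.0502). For the difference of effects, the call of Dhrs9 ended without TEL-AML1 day 5 replicate 1 or any 1 of the 4 untreated arrays, and those of Slc14a1 and Slfn5 ended without any 1 of the 8 arrays of both conditions. That of Slfn5 also ended with 1 block over all conditions (adjusted p = 0.056) and with a trended and robust variance (adjusted p = 0.0506). The call of Ccr2 held in each of these fits.

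Other genes had unlike effects in the 2 conditions without passing that test. Ms4a6c stood at 75.2 and 79.2 against 48.8 and 49.2 untreated (TEL-AML1 first), and its effect went from 0.52 to 2.28 (difference 1.76 ± 0.27, adjusted p = 0.111). Cmpk2 had no untreated difference (0.02) and 1.47 at day 5 (difference 1.46 ± 0.38, adjusted p = 0.566). Creb5 went up from 104 and 117 to 323 and 381 with the empty vector and stood at 84.2 and 70.9, then 78.7 and 86.7, with TEL-AML1 (difference -1.45 ± 0.28, adjusted p = 0.243). These 3 were called at day 5 and not untreated. In reverse, Cd81 was called untreated (2.79) and not at day 5 (0.54, difference -2.25 ± 0.52, adjusted p = 0.452). None of these differences of effects was shown. Against day 7, 0 genes passed by limma. An unadjusted limma p under 0.05 was found for 425 of 12345 genes, fewer than a share of 0.05 of the genes tested.

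At day 5 and in neither other condition, 119 genes were called, 67 higher and 52 lower. Among them were Calcrl, a receptor of adrenomedullin (523 and 673 against 252 and 281, -1.11 ± 0.19, adjusted p = 0.00514, ending without empty-vector replicate 2), and H2-Ob, which restrains MHC class II loading (160 and 254 against 97.6 and 85.6, -1.02 ± 0.18, adjusted p = 0.00659). The inhibitory receptors Lilr4b (-1.0 ± 0.21, adjusted p = 0.0149) and Lilrb4a (-0.96 ± 0.18, adjusted p = 0.01) were lower, their calls ending without empty-vector replicate 2 or TEL-AML1 replicate 1, and as close relatives they may share probes. These genes and Msmo1, Hmgcs1, Pfkp, Pfkl and Psmb9, which are in the same set, were chosen after their values were seen, and for none did the effect differ from the untreated effect by the test of that difference.

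**Figure D5:**
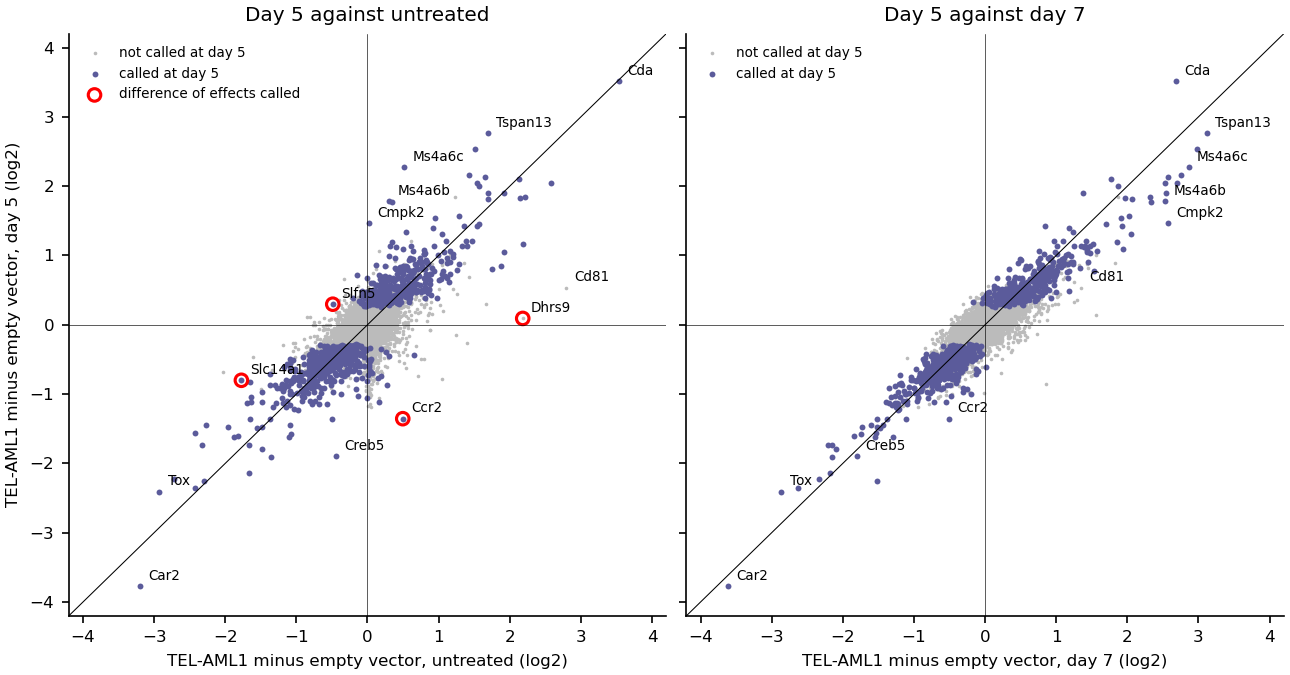
TEL-AML1 minus empty vector at day 5 (vertical axis, log2 scale) against the same difference in untreated cells (left) and at day 7 (right) for 12345 genes, with genes called at day 5 in dark points and the line of equal effect. The 4 ringed genes differ between day 5 and untreated by test, and Ccr2 lies at 0.50 untreated and -1.36 at day 5.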

How the data were processed

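TRIzol was used to extract RNA, with RNeasy columns for clean-up, and biotinylated cRNA was hybridised by the Affymetrix procedure, per the labels' protocols. The authors deposited 1 linear intensity per probe set and array. Background correction, summarisation and normalization are not given in the sources used here. Array medians lay between 68.1 and 72.9, so the deposited intensity values were kept. An array has no read depth, and the number of arrays limits the precision.

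Of 35556 probe sets, 21218 listed 1 gene, 1881 several and 12457 were not listed in the platform annotation. Each of 18820 named genes was represented by its probe set with the highest mean, and the 12345 genes above the 40th percentile of probe sets (an intensity of 59.9) were tested. The mean was taken over all arrays, so a tested gene can lie below that intensity in some groups. Among 35 lists and the chromosome Y genes, counts and medians were taken with no set test.

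Values were log2(intensity + 16). One model of 6 group means over all 12 arrays was fitted with limma 3.58.1 in R 4.3.3 (6 residual and 4.23 prior degrees of freedom), with Benjamini-Hochberg adjustment and a threshold of 0.05. On simulated data for the day 5 comparison over 12345 genes, 64.7% of changes of 0.5 (log2) were recovered. Of changes of 1 and of 2, 100% were recovered, and there were 14 false calls. Whether the simulated spread matches that of these arrays was not tested, so the 14 are no error rate for the calls given here. Replicate numbers come from the sample titles. The gaps between replicates correlated across genes at 0.432 (untreated), 0.543 (day 5) and 0.378 (day 7) between vectors of a condition, and at -0.242 to 0.157 otherwise, so numbers pair samples within a condition, and the block was fitted that way. The pairing is read from these gaps and the shared numbers.

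The named genes were the 25 highest and 25 lowest calls with arrays that do not overlap, skipping clone and predicted names, up to 6 genes of each list with the smallest adjusted p, up to 10 each way of the differences of effects, and the fixed genes Epor, Rara, Cbfb, Etv6 and Runx1 to Runx3. The text gives a part of these. Marker genes, the chromosome 5 and Y genes, and those called at day 5 only fall outside that rule in part. The members and lists were chosen with earlier results of these data known. Alternatives were other scalings, filters, pseudocounts, probe set rules, variance settings, blocks, a stroma covariate, leaving out arrays and fitting the day 5 arrays alone. Figures were drawn with matplotlib 3.10.9.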

Additional observations from a re-analysis of the deposited data

Results flagged for a closer look

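The TEL-AML1 effect at day 5 differed from that in untreated cells for 4 genes by the limma test of the difference itself. Ccr2 differed by -1.85 ± 0.14 (adjusted p = 0.00119), from 0.50 untreated to -1.36 at day 5, and its adjusted p stayed between 0.000598 and 0.0191 under the alternatives run for it. Dhrs9 differed by -2.09 ± 0.22 (adjusted p = 0.0113), with 0.118 as the highest adjusted p when 1 array was left out. Slc14a1 differed by 0.97 ± 0.12 (adjusted p = 0.0263, up to 0.214 with 1 array left out) and Slfn5 by 0.79 ± 0.097 (adjusted p = 0.028, up to 0.258 with 1 array left out, 0.056 with 1 block over all conditions and 0.0506 with a trended and robust variance). In each, both arrays of a vector moved alike from untreated to day 5.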

How the results depend on the processing

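The 900 day 5 calls numbered 828 to 957 with other scalings, filters, pseudocounts, probe set rules and a trended variance, 651 with array weights, 859 with 1 block over all conditions, 1254 with the stroma covariate and 748 without distal chromosome 5 and chromosome Y, an alternative chosen after seeing the data. They numbered 1827 with the replicate block within each condition, 450 to 801 with 1 day 5 array left out (450 when replicate 2 of the empty vector was dropped and 574 when either TEL-AML1 array was), 369 without both replicate 1 arrays, 309 without both replicate 2 arrays and 325 from the 4 day 5 arrays alone, which leave fewer degrees of freedom. Where only 1 array of a group was left, it is assumed to vary like the other groups. The spread shared over all 12 arrays also pools conditions whose replicates lay unequally far apart. The median absolute gap between replicates at day 5 was 0.134 (empty vector) and 0.102 (TEL-AML1), on the log2 scale. It was 0.0688 and 0.0682 untreated and 0.13 and 0.0976 at day 7, so day 5 standard errors partly borrow from the closer untreated arrays. None of the 900 was called in the other direction in any of these fits. For the blocks, the trended variance and the 4 day 5 arrays alone this was fixed, as they leave each difference unchanged. It was also fixed without both arrays of 1 replicate number, as all 900 had the same sign in both pairs. The other fits reuse these arrays, so the lack of reversals is no separate support. Of the 900, array weights kept 648 and the stroma covariate 817. Leaving out an untreated or day 7 array also changed the number called, although it leaves each day 5 difference as it was. The block within each condition kept all 900, and of the genes named it added Klf1, Ebf1, Gata2, Col1a1 and Fn1 and changed no other call. The 4 differences from the untreated effect numbered 7 with array weights, 9 with the block, 9 with the stroma covariate and 1 to 4 with 1 array left out (2 when replicate 2 of either vector at day 5 was dropped, 1 when TEL-AML1 replicate 1 at day 5 was, and 1 when any single untreated array was). The 0 differences from the day 7 effect became 1 without empty-vector day 7 replicate 2. The cause of these shifts was not tested. Dim genes near the filter have compressed differences.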

Other observations

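Gaps between replicates at day 5 ran by gene group, and differed between the vectors in some. Replication and mitosis genes were higher on replicate 1 in 29 of 34 with the empty vector and in 11 of 34 with TEL-AML1, with median gaps (replicate 2 minus 1) of -0.15 and 0.05 on the log2 scale. Over all tested genes 54.8% and 45.9% were higher on replicate 1, with medians of -0.02 and 0.01. Sterol and fatty acid synthesis genes had medians of -0.12 with the empty vector and 0.10 with TEL-AML1. Erythroid genes were higher on replicate 1 in 13 of 28 with the empty vector and in 23 of 28 with TEL-AML1, with medians of 0.02 and -0.18. Immediate early genes were higher on replicate 2 in 20 of 27 and 22 of 27. These are values of 2 arrays a vector, with no test.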
